A study of Mus musculus with 9 samples.

Results

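The Cyp3a genes code for the mouse enzymes of cytochrome P450 subfamily 3A. Their members were chosen by symbol from 8 named genes, Cyp3a11, Cyp3a13, Cyp3a16, Cyp3a25, Cyp3a41a, Cyp3a41b, Cyp3a44, and Cyp3a59, and those above 0 in at least 1 liver were kept. This left 7 of the 23183 gene symbols in the tables, because Cyp3a41a was listed at 0 in all 9 livers. A further family member in the tables, Cyp3a57, was not among the 8 and was left out, and its log2(FPKM + 1) level was 0.0719 and 0.0529 in HFD mice 2 and 3 and 0 in the other livers. Livers of 9 male C57BL/6J mice, an inbred strain that becomes obese on fat-rich food, were sequenced at postnatal day 100 with 1 library per mouse. The ND group (mice 6, 7, and 9) ate a normal diet with 14% fat and the HFD group (mice 1, 2, and 3) a high-fat diet with 60% fat, each for 10 weeks. The PRF 50 group (mice 3, 9, and 10) ate the same high-fat diet and received 50 mg/kg of PRF, a polymethoxyflavone-rich fraction of Citrus sunki leaves diluted in carboxymethyl cellulose, by mouth once a day during the last 5 weeks. The numbers name animals within a group and pair no mice between groups.

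CYP3A enzymes are membrane-bound monooxygenases of the endoplasmic reticulum that use heme and electrons from P450 oxidoreductase (Por) to oxidize drugs, steroids, and bile acids, mostly in hepatocytes around the central vein and in the intestine. Their genes are known targets of the xenobiotic receptors PXR (Nr1i2) and CAR (Nr1i3), which bind DNA together with RXR alpha (Rxra), and of the hepatocyte factor HNF4A. In mice, Cyp3a11 is the main form of the adult liver, and Cyp3a41a, Cyp3a41b, and Cyp3a44 are known as female-predominant forms, while Cyp3a16 is known from fetal and newborn liver.

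In GRCm38, 7 of the 8 named genes lie in a cluster on chromosome 5, from Cyp3a16 (RefSeq chr5:145436309-145469740, minus strand) to Cyp3a59 (chr5:146079208-146114978, plus strand), and Cyp3a11 (chr5:145854607-145879854) and Cyp3a25 (chr5:145977192-146009644) are on its minus strand. Cyp3a13 (chr5:137892933-137925610, minus strand) lies apart from them. All code for 503 or 504 residues. Cyp3a25 and Cyp3a59 were the closest pair among the well expressed members, with 97.5% identity of the coding bases and 95.0% of the residues, while Cyp3a11 and Cyp3a25 had 76.0% and 70.0%, and Cyp3a11 and Cyp3a13 had 76.4% and 70.8%. Reads that fit several members can be split by the authors' quantification in an unknown way. Of the stretches of 100 bases in the transcript, 6.05% in Cyp3a25 and 5.61% in Cyp3a59 were also present in another Cyp3a gene, against 0.312% in Cyp3a11 and 0% in Cyp3a13. The share was 90.8% in Cyp3a41a and 88.2% in Cyp3a41b, whose proteins were 100% identical, so that values of these latter genes are uncertain.

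The promoter stretches of the 4 well expressed members are shown because nuclear receptors act on this family through such sequences. They were taken from RefSeq on GRCm38.p6, run from base -220 to base -101 before the first start listed for each gene in the RefSeq promoter table, and are printed on the strand of the gene. That start is base 145879854 for Cyp3a11, 146009618 for Cyp3a25, 146079258 for Cyp3a59, and 137921619 for Cyp3a13, and except for Cyp3a11 it lies inside the outer RefSeq span given above. Capitals mark exact matches, in either direction, to AGGTCA or AGTTCA, the motifs bound by a single nuclear receptor subunit, and to CAAAGTCCA, a core motif of HNF4A. The stretch of Cyp3a11 is chr5:145879955-145880074 on the minus strand, and its last bases lie inside the longer GENCODE gene.

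Cyp3a11: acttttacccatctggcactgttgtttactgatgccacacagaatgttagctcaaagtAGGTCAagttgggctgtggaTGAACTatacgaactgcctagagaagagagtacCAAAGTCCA

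Cyp3a25 is shown from chr5:146009719-146009838 on the minus strand and Cyp3a59 from chr5:146079038-146079157 on the plus strand, both before the gene.

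Cyp3a25: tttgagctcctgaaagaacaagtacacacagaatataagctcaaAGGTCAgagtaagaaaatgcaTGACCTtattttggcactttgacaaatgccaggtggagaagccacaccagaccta

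Cyp3a59: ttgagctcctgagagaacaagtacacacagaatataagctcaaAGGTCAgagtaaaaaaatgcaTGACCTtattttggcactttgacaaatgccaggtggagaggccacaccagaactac

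The stretch of Cyp3a13 is chr5:137921720-137921839 on the minus strand, before the start used but inside the longer RefSeq gene span.

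Cyp3a13: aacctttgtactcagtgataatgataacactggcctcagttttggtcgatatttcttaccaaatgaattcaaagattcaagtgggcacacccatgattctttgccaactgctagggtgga

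Over the 250 bases before the start, AGGTCA was found in 13.8%, AGTTCA in 11.9%, and CAAAGTCCA in 0.381% of 27025 promoters. Cyp3a11 held 1 match to each, Cyp3a25 and Cyp3a59 held 2 matches to AGGTCA in opposite directions at nearly the same positions, and Cyp3a13 held none. Over the promoter windows compared, Cyp3a25 and Cyp3a59 had 94.8% identity, while Cyp3a11 had 52.0% with Cyp3a25 and 53.5% with Cyp3a13. These matches describe the sequences, and binding was not measured.

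The members divided into 4 genes with clear signal and 4 at or near 0. Values are log2(FPKM + 1), where FPKM is the number of fragments scaled to transcript length and library size, and fold changes are read on that scale, where the added 1 shrinks those of low genes. Cyp3a16 was above 0 only in ND mouse 9 (0.07) and HFD mouse 2 (0.07), Cyp3a41b only in HFD mouse 3 (0.04), and Cyp3a44 only in ND mouse 9 (0.06). These values and those listed at 0 show no order of the groups, and a listing at 0 is no proof of silence, because the abundant hepatocyte product albumin (Alb) also stood at 0 in all 9 livers. The label of liver was checked on 6 other hepatocyte genes (Apoa1, Ttr, Serpina1a, Tat, Apob, and Fgb), whose summed level was between 16130 and 24070 FPKM in every liver.

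Cyp3a11, which oxidizes many drugs and steroids, had log2(FPKM + 1) levels of 11.78, 11.70, and 11.30 in ND mice 6, 7, and 9, of 9.12, 8.81, and 9.04 in HFD mice 1, 2, and 3, and of 7.60, 6.51, and 8.07 in PRF 50 mice 3, 9, and 10. Every ND liver was above every HFD liver, and every HFD liver was above every PRF 50 liver, among which mouse 9 was the lowest and the spread was the widest. The mean level was 3119 ± 530 FPKM (SD, n = 3) in ND, 509 ± 55.0 in HFD, and 184 ± 89.4 in PRF 50. Among all genes of a liver, Cyp3a11 held rank 21 to 27 in the ND livers, 148 to 184 in the HFD livers, and 310 to 776 in the PRF 50 livers.

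Cyp3a25, a second member of the adult liver, had log2(FPKM + 1) levels of 8.54, 8.50, and 8.31 in the ND mice, 8.05, 8.13, and 8.16 in the HFD mice, and 7.44, 7.37, and 7.53 in the PRF 50 mice, in the same order of mice. The 3 groups did not overlap, and the step from HFD to PRF 50 was wider than the spread inside either group. Cyp3a59, the close paralog of Cyp3a25, had levels of 5.02, 5.03, and 4.89 in ND, 4.39, 4.50, and 4.59 in HFD, and 3.09, 3.36, and 3.22 in PRF 50. Its groups did not overlap either, and the PRF 50 livers stood well below the others. In mean FPKM, Cyp3a25 had 349 ± 28.8 in ND, 276 ± 11.4 in HFD, and 174 ± 9.58 in PRF 50 (SD, n = 3), and Cyp3a59 had 30.6 ± 1.64, 21.5 ± 1.54, and 8.35 ± 0.864.

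Cyp3a13, the member outside the cluster, had log2(FPKM + 1) levels of 5.77, 5.86, and 5.79 in ND, 6.37, 6.17, and 5.97 in HFD, and 6.42, 6.95, and 5.76 in PRF 50. The HFD livers were all above the ND livers, whereas the PRF 50 livers reached from the lowest value of all 9 livers (mouse 10) to the highest (mouse 9). PRF 50 mouse 9 thus had the highest Cyp3a13 and the lowest Cyp3a11. The mean level was 55.0 ± 1.78, 71.5 ± 10.1, and 86.7 ± 34.7 FPKM (SD, n = 3) in ND, HFD, and PRF 50.

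**Figure D1:**
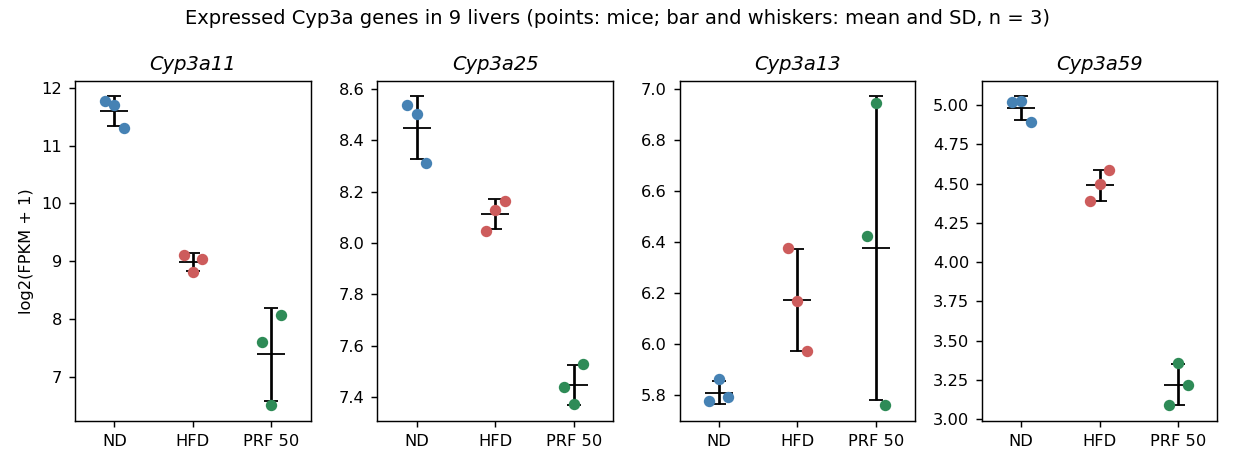
Level of the 4 well expressed Cyp3a genes in log2(FPKM + 1) in each liver, with points for mice and a bar with whiskers for the mean and SD of 3 mice per group; each panel has its own scale. Cyp3a11, Cyp3a25, and Cyp3a59 step down from ND to HFD to PRF 50 (Cyp3a11 means 11.59, 8.99, and 7.39), while Cyp3a13 of the PRF 50 livers spans 5.76 to 6.95.

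The first comparison, HFD vs. ND, asks what the diet did to the family. Of the 8 named members, 4 reached a mean of 1 FPKM over the 6 mice and were tested, and 1 of them fell at an adjusted p under 0.05, where 0.631% of the 9978 tested genes did. Cyp3a11 fell by 2.60 (SE 0.18, limma adjusted p = 0.00120), a 6.08-fold difference, which was the ninth largest fall among the tested genes, and it kept an adjusted p between 0.000294 and 0.0121 in all 13 alternatives that kept the gene separate. Cyp3a59 (-0.49, SE 0.10, adjusted p = 0.0755), Cyp3a25 (-0.34, SE 0.12, adjusted p = 0.256), and Cyp3a13 (0.36, SE 0.12, adjusted p = 0.233) did not pass. The HFD and ND livers did not overlap for any of the 4 tested members, 3 lower and Cyp3a13 higher in HFD, where 20.7% of all tested genes were apart in either direction. The p-values measure the spread between these mice, each with a single library.

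The second comparison, PRF 50 vs. HFD, asks what PRF added on the same diet. Here 2 of the 4 tested members fell, where 2.16% of the 10084 tested genes did, and they were the paralogs Cyp3a25 and Cyp3a59. Cyp3a59 fell by 1.27 (SE 0.10, limma adjusted p = 0.00380), a 2.41-fold difference with the eighth smallest p of all tested genes, and it passed in all 13 alternatives that kept it separate from Cyp3a25 (adjusted p from 0.000463 to 0.0314). Cyp3a25 fell by 0.67 (SE 0.0937, adjusted p = 0.0212), a 1.59-fold difference, but its adjusted p was 0.0855 without HFD mouse 2, 0.0796 without HFD mouse 3, 0.0713 without PRF 50 mouse 3, and 0.0528 after quantile normalization (range 0.0139 to 0.0855). The larger difference of Cyp3a11 (-1.60, SE 0.36, interval from -2.44 to -0.75 at the 95% level, adjusted p = 0.0610) did not pass with the 6 mice of the comparison. It passed with all 9 mice in the fit (0.0330), with a minimum of 10 FPKM (0.0493), without PRF 50 mouse 9 (-1.15, adjusted p = 0.0400) or without PRF 50 mouse 10 (-1.94, adjusted p = 0.0446), and its 13 alternatives ranged from 0.0330 to 0.171. Cyp3a13 differed by 0.20 (SE 0.28, adjusted p = 0.739), by -0.082 (adjusted p = 0.889) without PRF 50 mouse 9, by 0.51 (0.221) without PRF 50 mouse 10, and by 0.10 (0.912) without HFD mouse 3. The 2 groups did not overlap for 3 members, all lower in PRF 50, as were 15.3% of all tested genes. By the criterion of an unadjusted p under 0.05 with a fold above 2, 2 members were lower, Cyp3a11 and Cyp3a59, where 1.04% of all tested genes were.

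The third comparison, PRF 50 vs. ND, measures how far the treated livers were from the normal diet. Of the 4 tested members, 3 fell, where 0.298% of the 10051 tested genes did. Cyp3a11 fell by 4.20 (SE 0.37, limma adjusted p = 0.00684), an 18.4-fold difference and the second largest fall among the tested genes, although its adjusted p was 0.0683 without ND mouse 7 (-4.14, range 0.000853 to 0.0683). Cyp3a59 fell by 1.76 (SE 0.11, adjusted p = 0.00147), with the second smallest p among the tested genes, and passed in the same 13 alternatives. Cyp3a25 fell by 1.001 (SE 0.12, adjusted p = 0.0217), which was lost without ND mouse 6 (0.0654), ND mouse 7 (0.122), PRF 50 mouse 3 (0.130), or PRF 50 mouse 9 (0.0629), and without a minimum level (0.0555). Without ND mouse 7, only Cyp3a59 of the 4 tested members passed, so that 1 member was called in place of 3. Cyp3a13 differed by 0.57 (SE 0.26, adjusted p = 0.432), by 0.28 (0.747) without PRF 50 mouse 9, and by 0.88 (0.0937) without PRF 50 mouse 10. The groups did not overlap for the 3 members that fell, where 11.8% of all tested genes were lower without overlap. The 3 comparisons share mice in pairs (HFD vs. ND and PRF 50 vs. HFD both use the HFD mice), so their values are given side by side and are not independent.

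**Figure D2:**
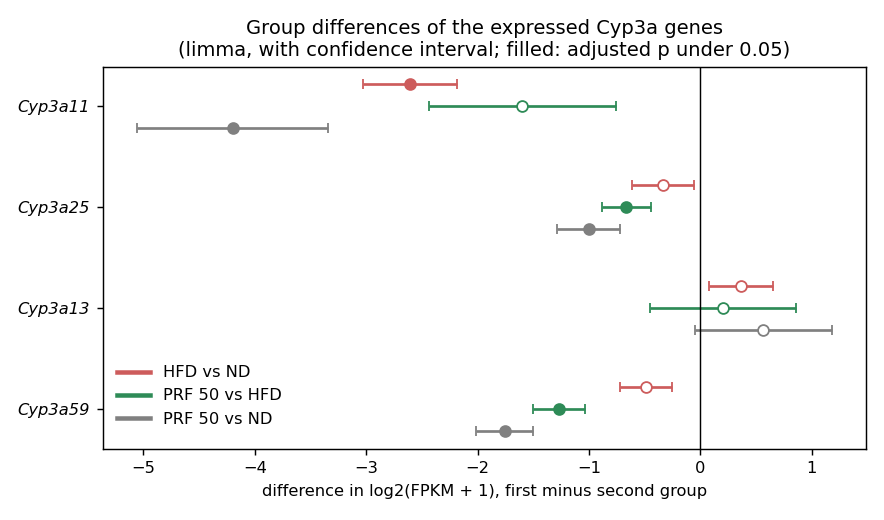
Differences of 4 Cyp3a genes between groups in log2(FPKM + 1), as points with 95% intervals from limma, one colour per comparison; filled points had an adjusted p under 0.05. Cyp3a11 lies at -2.60, -1.60, and -4.20, Cyp3a25 at -0.34, -0.67, and -1.001, and Cyp3a59 at -0.49, -1.27, and -1.76, while Cyp3a13 lies at 0.36, 0.20, and 0.57 with open points.

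The makeup of the family differed between the groups along with its level. The summed FPKM of the members was 3964, 3782, and 2914 in the ND livers, 919, 819, and 895 in the HFD livers, and 458, 386, and 513 in the PRF 50 livers, without overlap between groups. The share of Cyp3a11 in that sum was 88.5%, 88.1%, and 86.3% in ND, 60.3%, 54.6%, and 58.6% in HFD, and 42.1%, 23.3%, and 52.2% in PRF 50. All 3 groups were apart in this share, and Cyp3a25 instead of Cyp3a11 was the most abundant member in PRF 50 mouse 9. The ratio of Cyp3a11 to Cyp3a25 in FPKM was 9.48, 9.23, and 7.95 in ND, 2.10, 1.60, and 1.84 in HFD, and 1.12, 0.546, and 1.46 in PRF 50. The ratio of the paralogs Cyp3a25 to Cyp3a59 was 11.8, 11.4, and 11.03 in ND, 13.2, 12.9, and 12.4 in HFD, and 23.0, 17.8, and 22.1 in PRF 50. These ratios were not tested, and in each of them the 3 groups did not overlap. In order of group mean among the P450 genes, Cyp3a11 was in place 2 in ND, 5 in HFD, and 14 in PRF 50, Cyp3a25 in places 11, 12, and 15, Cyp3a13 in places 29, 28, and 24, and Cyp3a59 in places 35, 39, and 40. Cyp2e1, which oxidizes ethanol, was in place 1 in all 3 groups.

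**Figure D3:**
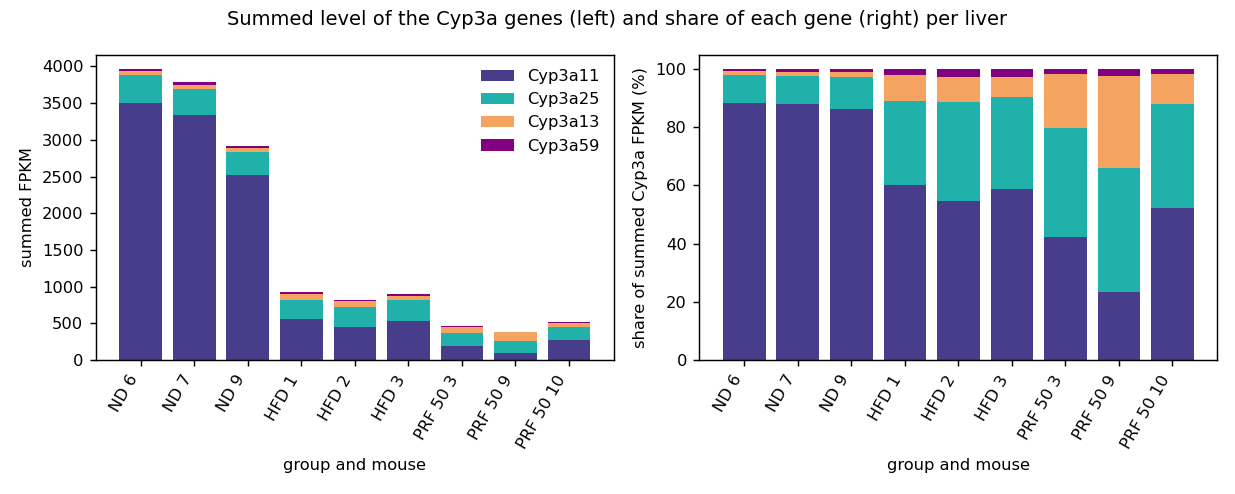
Summed FPKM of the Cyp3a genes in each liver (left) and share of each gene in that sum in percent (right), as stacked bars, 1 bar per mouse. The sum goes from between 2914 and 3964 in ND to between 819 and 919 in HFD and between 386 and 513 in PRF 50, and the Cyp3a11 share from 88.5% in ND mouse 6 to 23.3% in PRF 50 mouse 9.

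Of 16 genes listed as regulators of the Cyp3a genes, 15 were tested in each comparison. None passed in HFD vs. ND (limma, 6 had an unadjusted p under 0.05, as had 15.1% of all tested genes) or in PRF 50 vs. ND (3 had, and 12.5% of all tested genes). Between PRF 50 and HFD, 2 regulators fell and none rose, Nr1i3 (-0.93, SE 0.17, adjusted p = 0.0336) and Nr1i2 (-0.67, SE 0.12, adjusted p = 0.0369), the receptors CAR and PXR, where 2.16% of all tested genes fell and 1.43% rose. Without HFD mouse 3, only 11 of all tested genes fell in PRF 50 vs. HFD, and 21 did without HFD mouse 2. Tests of these 2 receptors without single mice are not given. Nr1i2 had log2(FPKM + 1) levels of 4.87, 4.41, and 4.54 in ND, 5.27, 4.84, and 5.12 in HFD, and 4.51, 4.40, and 4.30 in PRF 50. Nr1i3 had levels of 5.66, 5.28, and 5.05 in ND, 6.23, 5.71, and 6.22 in HFD, and 5.06, 5.32, and 4.97 in PRF 50. Both receptors had their highest mean in the HFD group, and whether their levels are linked to those of the Cyp3a genes was not tested. Rxra (6.44, 6.44, and 6.62), Hnf4a (7.09, 6.77, and 6.86), and the glucocorticoid receptor Nr3c1 (4.11, 4.28, and 4.22, group means in ND, HFD, and PRF 50) did not pass in any comparison. The median difference of the list was -0.03, 0.03, and -0.20 in the 3 comparisons, against -0.01, -0.02, and -0.03 over all tested genes.

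None of the 14 listed genes for electron supply and for heme synthesis and breakdown passed in any comparison (limma, 1, 3, and 4 had an unadjusted p under 0.05, as had 15.1%, 20.2%, and 12.5% of all tested genes). Por had group means of 6.99, 7.23, and 7.16, and the median difference of this list was 0.00, -0.15, and -0.17. Of the 14 genes, 7 were lower in HFD vs. ND, 13 in PRF 50 vs. HFD, and 11 in PRF 50 vs. ND. Hmox1, which breaks heme down and so has another role than the rest of the list, differed by 0.50, 1.22, and 1.73 (adjusted p = 0.452, 0.299, and 0.273).

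Among 20 other genes known to respond to PXR and CAR, 19, 17, and 18 were tested in HFD vs. ND, PRF 50 vs. HFD, and PRF 50 vs. ND. In HFD vs. ND, 3 fell as Cyp3a11 did and none rose, where 0.631% of all tested genes fell: Cyp2c55 (-1.999, adjusted p = 0.00275), the carboxylesterase Ces2a (-2.02, adjusted p = 0.0278), and the glutathione transferase Gstm3 (-1.48, adjusted p = 0.0483). Cyp2c55 (group means 2.87, 0.87, and 0.81 in ND, HFD, and PRF 50) and Cyp2b10 (1.54, 0.25, and 0.14) reached the minimum of 1 FPKM only through the ND livers. The minimum thus fixed their direction against ND, and the count of 3 includes Cyp2c55. Between PRF 50 and HFD, 3 other genes fell and none rose, namely the export pumps Abcc3 (-0.998, adjusted p = 0.0249) and Abcb1a (-0.75, adjusted p = 0.0256) and the retinal dehydrogenase Aldh1a1 (-0.89, adjusted p = 0.0335), where 2.16% of all tested genes fell. Abcb1a (means of 0.96, 1.66, and 0.91 in ND, HFD, and PRF 50) reached the minimum only through the HFD livers. The minimum thus fixed the direction of Abcb1a in both comparisons with HFD. Without HFD mouse 3, only 11 of all tested genes fell in PRF 50 vs. HFD, and tests of these genes without single mice are not given. Against ND, 4 fell in PRF 50 and none rose (Abcc3, Cyp2c55, the uptake carrier Slco1a4, and Ces2a), where 0.298% of all tested genes fell. Cyp2c55 was again tested only through its ND level. Without ND mouse 7, only 3 of all tested genes fell in PRF 50 vs. ND, which is fewer than these 4. Cyp2b10, the usual marker of CAR activity, had levels of 1.94, 1.73, and 0.95 in ND, 0.26, 0.12, and 0.39 in HFD, and 0.20, 0.09, and 0.14 in PRF 50. Every ND liver was above the others in Cyp2b10, as in Cyp3a11, but the gene did not pass in HFD vs. ND (-1.28, adjusted p = 0.0584) or PRF 50 vs. ND (-1.40, adjusted p = 0.0690). The median difference of the list was -0.41, -0.23, and -0.76. It includes Cyp2c55 and Cyp2b10 in both comparisons with ND and Abcb1a in both comparisons with HFD. The median of the 4 tested Cyp3a genes was -0.41, -0.97, and -1.38.

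**Figure D4:**
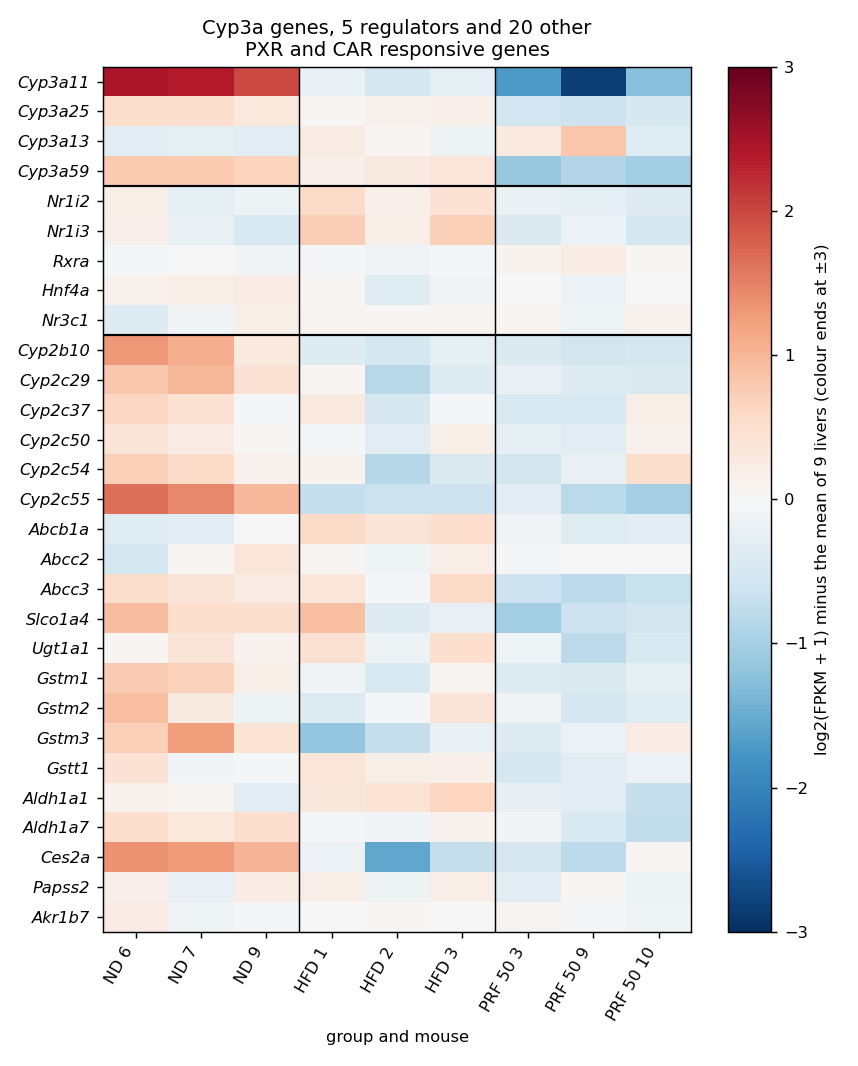
Level of 4 Cyp3a genes, 5 regulators, and 20 other genes known to respond to PXR and CAR in each liver, as log2(FPKM + 1) minus the mean of the gene over 9 livers, in colour from blue (low) to red (high). Cyp3a11 goes from red in ND to blue in PRF 50, Cyp2c55 and Ces2a are reddest in ND (means 2.87 and 8.21), and Nr1i2 and Nr1i3 are reddest in HFD, with means of 5.08 and 6.05.

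Sex-biased genes of the liver were counted because several Cyp3a members are known as female forms. Of 17 female-biased genes, 8 were tested in HFD vs. ND, and 3 rose (Cyp2b9, Fmo2, and Cyp2b13) and none fell, where 0.702% of all tested genes rose and 0.631% fell. The 8 include Cyp2b13 (group means 0.12, 2.48, and 0.02 in ND, HFD, and PRF 50) and Cyp2a4 (0.39, 2.21, and 0.21). Both reached the minimum of 1 FPKM only through the HFD livers, so the minimum fixed their direction against HFD. Cyp2b9 had levels of 2.84, 1.08, and 0.66 in ND, 6.57, 7.14, and 7.41 in HFD, and 1.70, 0.88, and 0.55 in PRF 50. The Cyp2b9 level was thus high in every HFD liver. In the same livers, the female-predominant Cyp3a41a and Cyp3a44 were listed at 0 and Cyp3a41b reached 0.04 at most. As stated above, values of Cyp3a41a and Cyp3a41b are uncertain, and a listing at 0 is no proof of silence. Under PRF 50, 3 of 8 tested female-biased genes fell against HFD and none rose (Cyp2b9, Abcd2, and Cyp2b13). The 8 again include Cyp2b13 and Cyp2a4, tested only through their HFD level, so the fall of Cyp2b13 adds nothing to this count. None of 6 passed in PRF 50 vs. ND (limma, 1 had an unadjusted p under 0.05, as had 12.5% of all tested genes). Of 19 male-biased genes, 11 fell and none rose in HFD vs. ND, 8 rose and none fell in PRF 50 vs. HFD, and 1 rose and 1 fell in PRF 50 vs. ND. Ugt2b38, among the 11, reached the minimum only through the ND livers (mean of 2.63, and 0.77 in HFD). Without HFD mouse 3, only 4 of all tested genes rose in PRF 50 vs. HFD, which is fewer than these 8. The sex-biased lists were chosen with earlier results of these data known, so their counts beside all tested genes are no independent evidence. Of all tested genes, 1.43% rose and 2.16% fell in PRF 50 vs. HFD, and 0.159% rose and 0.298% fell in PRF 50 vs. ND. The median of the male-biased genes was -1.19 in HFD vs. ND and 1.16 in PRF 50 vs. HFD, whereas Cyp3a11, Cyp3a25, and Cyp3a59 had negative values in both. The median of the female-biased genes was 1.77 and -1.05. It includes Cyp2b13 and Cyp2a4, whose direction the minimum fixed, so it is not set against the Cyp3a genes.

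Among the 96 P450 genes in the tables from outside the Cyp3a subfamily, 57, 55, and 53 were tested in the 3 comparisons. In HFD vs. ND, 4 of 57 rose and 4 fell (0.702% and 0.631% of all tested genes), and the 5 with the smallest p were Cyp26a1 (-2.50), Cyp2c55 (-1.999), Cyp2b9 (5.52), Cyp7b1 (-1.19), and Cyp4a14 (1.76). From HFD to PRF 50, 2 of 55 rose and 8 fell (1.43% and 2.16% of all tested genes), led by Cyp2b9 (-5.997), Cyp2c38 (-2.11), Cyp4a14 (-5.36), Cyp46a1 (-1.01), and Cyp4a10 (-4.05). Against ND, none of 53 rose and 3 fell in PRF 50 (Cyp26a1, Cyp2c55, and Cyp4a12b), where 0.298% of all tested genes fell. These 3 genes fell in both comparisons with ND, as did Cyp3a11, and the median of the 96 genes was -0.21, -0.12, and -0.34 among those tested. Cyp2c55 reached the minimum of 1 FPKM only through the ND livers. In HFD vs. ND, Cyp2b13, 1 of the 4 genes that rose, reached it only through the HFD livers. In PRF 50 vs. HFD, Cyp46a1, Cyp2b13, and Cyp2c39 (means of 2.07 in HFD and 0.66 in PRF 50) reached it only through the HFD livers. All 3 are among the 8 that fell. The minimum thus fixed the direction of these genes in those comparisons. The nearest tested genes beside the cluster, Zkscan5, Zfp655, and Zscan25, did not pass in any comparison (limma, 0, 0, and 1 of these 3 had an unadjusted p under 0.05, as had 15.1%, 20.2%, and 12.5% of all tested genes).

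The genes with the profile most like each Cyp3a gene were sought by the root-mean-square difference of centred log2 values over the 9 livers, among genes that averaged 1 FPKM or more. Nearest to Cyp3a11 were Gsta2 (0.605), Raet1d (0.937), Nat8 (0.979), Cyp2c55 (1.001), and Csad (1.01), while the same measure for Cyp3a11 against a flat line at its own mean was 1.78. Gsta2, a glutathione transferase, had group means of 5.85, 3.71, and 2.52 and stepped down in the order of Cyp3a11. Nearest to Cyp3a25 were Tubb4b (0.154), Ugdh (0.159), Ces1f (0.163), Car14 (0.175), and Zc3h8 (0.176), and nearest to Cyp3a59 were Ces1e (0.257), Car3 (0.269), Ehhadh (0.281), Klf10 (0.284), and Gstt3 (0.290). The Cyp3a genes were not each other's nearest. Cyp3a25 was in place 10 for Cyp3a59 (0.339), but Cyp3a59 was in place 650 for Cyp3a25. Cyp3a59 and Cyp3a25 were in places 14 and 53 for Cyp3a11 (1.17 and 1.39), but Cyp3a11 was in place 9823 for Cyp3a59 and 10000 for Cyp3a25. The measure also counts the size of a difference, and against a flat line it was 0.7455 for Cyp3a59 and 0.4225 for Cyp3a25, so these far places do not mean that the groups were in another order. The means of all 3 genes went down from ND to HFD to PRF 50. Nearest to Cyp3a13 were Litaf (0.151), Serpina10 (0.151), Prepl (0.160), Esr1 (0.169), and Slc39a14 (0.172). All genes share the same 9 libraries and their normalization, and no test was made of these distances.

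Marker genes of other liver cells were read beside the Cyp3a differences, since in whole liver fewer cells of a type and less RNA per cell cannot be told apart. In PRF 50 vs. HFD, in which Cyp3a25 and Cyp3a59 fell, 5 of 6 Kupffer cell markers rose (Timd4, Vsig4, Adgre1, Cd5l, and Clec4f, limma adjusted p between 0.0150 and 0.0336), where 1.43% of all tested genes rose. Without HFD mouse 3, only 4 of all tested genes rose in this comparison, which is fewer than these 5. Marco was higher by 2.61 without overlap of the groups but did not pass (adjusted p = 0.135). The summed FPKM of the 6 was 40.6, 77.0, and 107 in ND, 48.9, 84.5, and 89.9 in HFD, and 311, 177, and 210 in PRF 50, with Cd5l as the most abundant gene and none at 0 in all livers. None of the 6 passed in HFD vs. ND, in which Cyp3a11 fell (limma, 0 had an unadjusted p under 0.05), or in PRF 50 vs. ND (6 had, and 12.5% of all tested genes). None of the 6 hepatocyte markers passed in any comparison (0, 2, and 0 had an unadjusted p under 0.05, as had 15.1%, 20.2%, and 12.5% of all tested genes). The part of the Kupffer cell markers in the Cyp3a differences was not tested.

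Of the genes of hepatocytes around the central vein, where Cyp3a11 is known to be expressed, none of 15 passed in any comparison (limma, 2, 3, and 2 had an unadjusted p under 0.05, as had 15.1%, 20.2%, and 12.5% of all tested genes), with medians of -0.05, 0.01, and 0.09. Of 12 genes of hepatocytes around the portal vein, 1 rose in PRF 50 vs. HFD (Cdh1), where 1.43% of all tested genes rose, and none passed in the others (8 in HFD vs. ND and 3 in PRF 50 vs. ND had an unadjusted p under 0.05, against the same 15.1% and 12.5%). The median of these 12 genes was -0.44 in HFD vs. ND (10 lower), 0.36 in PRF 50 vs. HFD (11 higher), and -0.097 in PRF 50 vs. ND (7 lower), and its part in the Cyp3a differences was not tested. No endothelial, stellate, cholangiocyte, neutrophil, or intestinal marker that could be tested passed in any comparison. In PRF 50 vs. HFD, 1 of 6 endothelial, 2 of 6 stellate, and 1 of 2 neutrophil markers had an unadjusted limma p under 0.05. So had the 1 tested intestinal marker and 20.2% of all tested genes. In HFD vs. ND, 1 of 6 endothelial and 2 of 6 stellate markers had, as had 15.1% of all tested genes. No lymphocyte or adipocyte marker reached the minimum level. The summed FPKM of 3 neutrophil markers was 53.9 in PRF 50 mouse 3 and between 2.53 and 17.5 in the other livers, and the Cyp3a11 level of that mouse was between those of PRF 50 mice 9 and 10. The intestinal markers Cdx2 and Cdh17 and the adipocyte markers Plin1 and Lep were listed at 0 in all 9 livers.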

How the data were processed

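Liver RNA of 9 mice was sequenced as directional paired-end libraries. The authors trimmed reads, mapped them with TopHat (build mm10, which is GRCm38, in the submitters' processing notes), and made FPKM values that were normalized across samples. The deposited log2 values, 1 for each symbol in each mouse, were taken as log2(FPKM + 1), with the pseudocount of 1 inferred from a minimum of 0. Without read counts, absolute depth and counting error are unknown, and relative depths estimated from low values were 0.962 to 1.60 of HFD mouse 1.

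Groups were compared in pairs with limma 3.58.1 in R 4.3.3 (lmFit, eBayes with a trend, two-sided), on genes averaging 1 FPKM or more over the 6 mice, with Benjamini-Hochberg adjustment over all tested genes. The step was tested on simulated data. A second criterion was an unadjusted p under 0.05 with a fold above 2. The alternatives were a joint fit of all 9 mice, omission of each mouse, a pseudocount of 0.1, no minimum, 10 FPKM as minimum, quantile normalization, median-of-ratios scaling, no trend, and the sum of members with at least 90% protein identity.

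The genes named are the Cyp3a members, members of the lists (regulators, electron and heme partners, genes responsive to PXR and CAR, sex-biased, pericentral, periportal, and cell type markers), the 5 other P450 genes with the smallest p, the 5 genes most like each member, and neighbours of the cluster. Members and lists were chosen with earlier results of these data known. Identity was computed with Biopython 1.88 from GENCODE M21 transcripts (GRCm38), and promoters are from RefSeq (GRCm38.p6).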

Additional observations from a re-analysis of the deposited data

How the results depend on the processing

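Of 159 values of single Cyp3a genes under the alternatives, sums of paralogs left out, 143 kept their direction and their side of the threshold, 5 passed it only under the alternative, 10 passed it only in the reported fit, and 1 changed direction (Cyp3a13 in PRF 50 vs. HFD without PRF 50 mouse 9, -0.082, while the values without single mice reached 0.51). The number of Cyp3a genes called in HFD vs. ND was 1 and became 2 with a minimum of 10 FPKM, by Cyp3a59 (adjusted p = 0.0445; range 0.0445 to 0.257). In PRF 50 vs. HFD it was 2 and became 3 with all 9 mice in 1 fit or a minimum of 10 FPKM, 1 after quantile normalization, 1 when close paralogs were summed, which joins Cyp3a25 and Cyp3a59 in 1 feature (-0.71, adjusted p = 0.0182), and 1 to 3 without single mice. In PRF 50 vs. ND it was 3 and became 2 with no minimum level or with summed paralogs (-1.05 for Cyp3a25 and Cyp3a59, adjusted p = 0.0184), and 1 to 3 without single mice. All genes called were 133 in HFD vs. ND, 37 with no minimum level, and 35 to 140 without single mice. They were 362 in PRF 50 vs. HFD, 126 with no minimum level, and 15 to 242 without single mice, and 46 in PRF 50 vs. ND, 102 with all 9 mice in 1 fit, 11 with no minimum level, and 4 to 71 without single mice. Leaving out a mouse leaves fewer samples for each fit, and other causes of these shifts were not tested. No paired analysis was possible because the groups compared share fewer than 2 mouse numbers, which name animals within a group. With 3 mice per group and unknown depth, small differences such as those of Cyp3a13 cannot be resolved, and the values of Cyp3a16, Cyp3a41b, and Cyp3a44 near 0 give no comparison.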
